A study of Bos taurus with 12 samples.

Results

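The comparison set bovine SVC differentiated without insulin (rDM 0% Ins) against SVC differentiated without hydrocortisone and progesterone (rDM 0% HC/PR). The 6 libraries of these media, 3 of each, were taken by their labels from the 12 libraries of the series, and each library without insulin was paired with the library without HC/PR of the same donor. No library of the complete medium entered the test, so the result does not rest on a shared control. The cells were stromal vascular cells, labelled MSC, of subcutaneous brisket fat from Belgian Blue cattle of donors A, B and C, each a separate isolation. The age ranges given for the cattle differ within the methods, and no age is tied to a library. All cells were primary cells with no genetic change, grown in 2D, kept in serum-free DMAD and harvested at day 12.

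Both media were derived from rDM, the reduced differentiation medium. Its rosiglitazone was at 5 μM and its insulin at 10 μg/mL, with 25 nM of hydrocortisone and 17 nM of progesterone from DMAD. rDM 0% Ins therefore held rosiglitazone and the steroids, whereas rDM 0% HC/PR held rosiglitazone and insulin. The 3 libraries of rDM itself and the 3 of rDM 0% Ros, which lacked rosiglitazone, are given below for the levels of genes.

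Insulin is the hormone that signals nutrient supply to the adipocyte. Through its receptor and the kinase AKT it raises glucose uptake and lipid synthesis, and it keeps FOXO transcription factors out of the nucleus. Hydrocortisone binds the glucocorticoid receptor, a transcription factor that moves to the nucleus with its ligand, and progesterone was included in the study as a second activator of that receptor. Rosiglitazone, present in both media, is a ligand of PPARγ, the transcription factor that drives adipocyte differentiation.

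mRNA was read as PCR-amplified cDNA on a Nanopore sequencer. Without insulin, the batch-corrected counts per library came to 555265 in donor A, 447821 in donor B and 295288 in donor C. Without HC/PR, they came to 602243, 375896 and 523293. These reads were recovered from the deposited table of CPM (read counts scaled to 1000000 per library), in which 100% of the values above 0 were whole multiples of 1 read within a tolerance of 0.001 reads. A level of 3 reads was taken as the limit of detection, and it lay between 5.40 and 10.2 CPM without insulin and between 4.98 and 7.98 CPM without HC/PR. Counting error alone is covered by such limits, because reads of PCR copies do not stand for separate molecules. The libraries of donor A were all in the first sequencing pool and those of donor C all in the second. In donor B the library without insulin was in the first pool and the library without HC/PR in the second.

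The table names genes by Ensembl identifier only, and the reference used here pairs 0 of its 22372 identifiers with a symbol. Adipocyte, precursor, endothelial and leukocyte markers, lipogenic genes and glucocorticoid receptor targets could therefore not be looked up, and the labelled cell type was not checked. Genes are described below by level and pattern, with 2 identifiers in each direction.

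Between the insulin-free and the steroid-free medium, 54 of 8962 genes tested differed (0.603%), of which 30 were higher (0.335%) and 24 lower (0.268%) without insulin. In bulk mRNA, a gene that is lower in fewer cells and one that is lower in each cell cannot be told apart. The test was limma on log2(CPM + 1) with a donor block, at a Benjamini-Hochberg adjusted p under 0.05. The rDM 0% Ros libraries were in the fit to estimate the spread. Fold changes are without insulin against without HC/PR, and on this scale they understate the change of low genes. At an unadjusted p under 0.05 there were 933 genes, where 448 would be given by chance. The differences were large, with 52 of the 54 genes at 2-fold or more and 32 at 4-fold or more. The median log2 fold change was 2.49 among the 30 higher genes, which ranged from 1.03 to 7.38. It was -2.20 among the 24 lower genes, which ranged from -5.69 to -0.90. All 54 moved in the same direction in each of the 3 donors, and the libraries of both media did not overlap for any of them. Such a lack of overlap held for 19.8% of the genes tested. The 54 were chosen by this contrast, so these counts and the size of the differences describe the calls and test nothing. The donor as a block mattered for the count, which was 132 (1.47%) with no replicate block. The count also rested on single libraries. It was 130, 13 and 7 without the insulin-free library of donor A, B or C, and 15, 24 and 24 without the steroid-free one. The balance of directions depended on the tool. DESeq2 called 36 higher and 47 lower without insulin, and edgeR without its filter 103 higher and 155 lower.

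**Figure D1:**
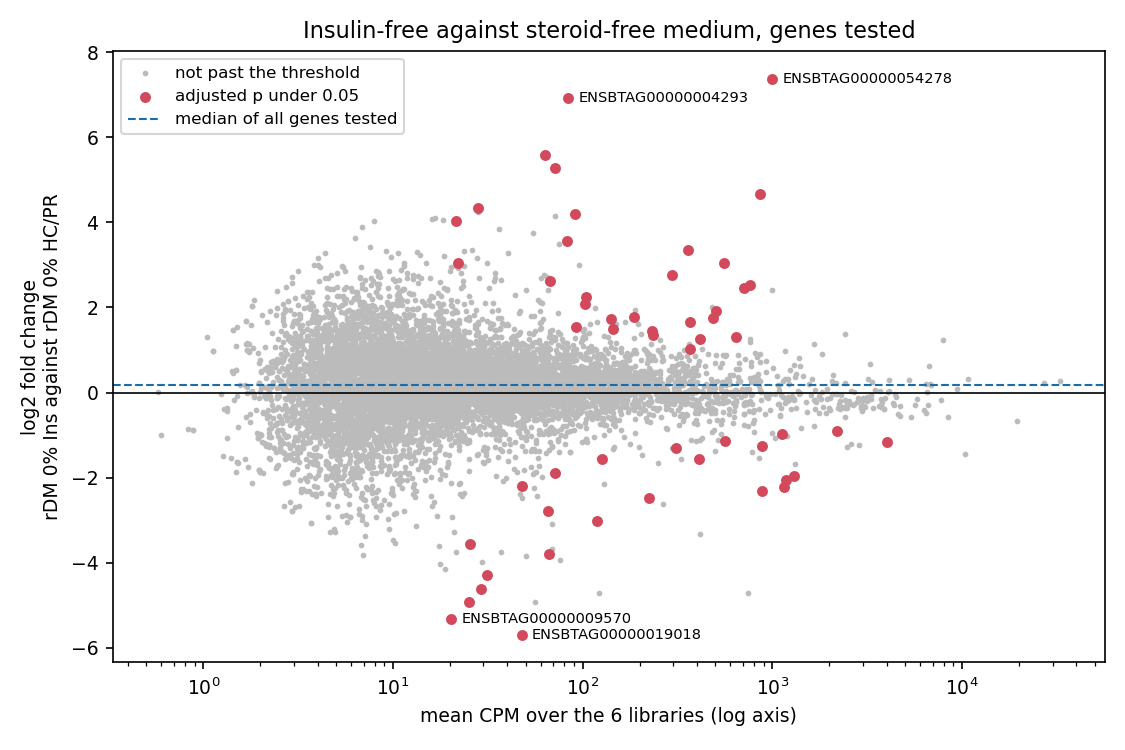
Each point is a gene tested, with its mean CPM over the 6 libraries (log axis) against its log2 fold change without insulin against without HC/PR. The 54 genes past the threshold (red) lie at 20.2 CPM or more, and the dashed line marks the median of all genes tested, 0.18.

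The share of genes that limma called differed with their level. Of the 4771 genes with a mean under 20 CPM over the 6 libraries, 0 were called by limma, with 270 at an unadjusted p under 0.05. On the recovered reads edgeR called 0 of the 455 of these genes that passed its filter, and DESeq2 1 of the 788 to which it gave an adjusted p. Without its filter edgeR tested all 4771 and called 35. In this range the median spread of the log2 difference between donors was 1.28 (SD, n = 3 donors). From 20 to 100 CPM, 20 of 2932 genes were called, with 10 in each direction. From 100 to 1000 CPM, 28 of 1095 were called, 20 higher and 8 lower without insulin. At 1000 CPM or more, 6 of 164 were called, and all of these were lower without insulin. In that range the median spread between donors was 0.22 (SD, n = 3 donors). The 6 abundant genes stayed lower in all 26 other fits, which reuse the libraries on which they were chosen and are no separate support. From 0 to 6 of these genes were past the threshold in each fit. Their mean levels without insulin were between 418.7 and 2442 CPM, and without HC/PR between 1490 and 5619 CPM. Their log2 fold changes lay between -2.21 and -0.90.

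The middle of the distribution differed with the scaling. TMM places the centre of the log ratios near 0 by design, so the value after it does not test the shift seen by library size. Over all genes tested, the median log2 fold change was 0.18 by library size and -0.01 after TMM scaling. By library size it also rested on donor C, with medians of -0.02, 0.15 and 0.55 in donors A, B and C. It was 0.05 without the steroid-free library of donor C and 0.35 without the insulin-free library of donor A. With TMM scaling 46 genes were called (0.507%), 23 in each direction, and each of the 54 genes kept its direction.

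The gene that limma ranked first among the rises at a pseudocount of 1 was ENSBTAG00000054278. It was at 1450, 1706 and 2726 CPM in donors A, B and C without insulin. Without HC/PR it was at 1.66, 5.32 and 86.0 CPM. All insulin-free libraries were thus far above all steroid-free libraries, and the steroid-free library of donor C stood above the other two. The insulin-free mean was 1961 ± 675 CPM and the steroid-free mean 31.0 ± 47.7 CPM (SD, n = 3 each), a ratio of 63.3. The ratio was set by the steroid-free library of donor C, which held 45 of the 48 steroid-free reads. Without it the steroid-free mean was 3.49 CPM and the log2 fold change in limma 8.54. limma averages the log2 differences of the donors, which were 9.09, 8.08 and 4.97 in A, B and C. With that library in the fit it gave a log2 fold change of 7.38 with a standard error of 0.61 (adjusted p = 0.000724). This was 7.20 relative to the median of all genes, and it is not the log2 of the ratio of means. Without the variance trend in limma the log2 fold change was the same and the adjusted p 0.079, or 0.0708 with all 12 libraries, and over 26 alternatives it ran from 1.02e-46 to 0.079. The same gene was at 124, 709 and 74.5 CPM in rDM. It was at 673, 946 and 1639 CPM in rDM 0% Ros. In each donor its order was thus rDM 0% Ins, then rDM 0% Ros, with the levels in rDM 0% HC/PR and rDM below both. The steroid-free library was the lowest of the 4 in donors A and B, and rDM was the lowest in donor C.

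The gene next in that order, ENSBTAG00000004293, had 0 reads in all 3 libraries without HC/PR. Without insulin it was at 59.4, 80.4 and 362 CPM, from 33, 36 and 107 reads. Against the largest limit of 3 reads per library in the steroid-free medium, 7.98 CPM, its mean of 167 CPM was at least 21.0-fold higher. This mean rested on donor C, and without its insulin-free library it was 69.9 CPM, at least 8.76-fold higher. limma gave a log2 fold change of 6.92 with a standard error of 0.63 (adjusted p = 0.000724), which depends on the pseudocount and is no bound. The order of both genes depends on it too, and ENSBTAG00000004293 came first at a pseudocount of 0.1 (10.23 against 7.66), in edgeR (8.97 against 6.24) and in DESeq2 (8.13 against 6.86). It was also present in every library with steroids, at 25.3, 183 and 228 CPM in rDM and at 15.2, 30.6 and 78.7 CPM in rDM 0% Ros. Over the whole table it was the only gene with 0 reads in the 3 steroid-free libraries and at least 20 CPM in each insulin-free library. Without donor C its log2 fold change was 6.13 and its adjusted p in limma 0.0684, the highest over 26 alternatives, of which the lowest was 5.44e-24.

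**Figure D2:**
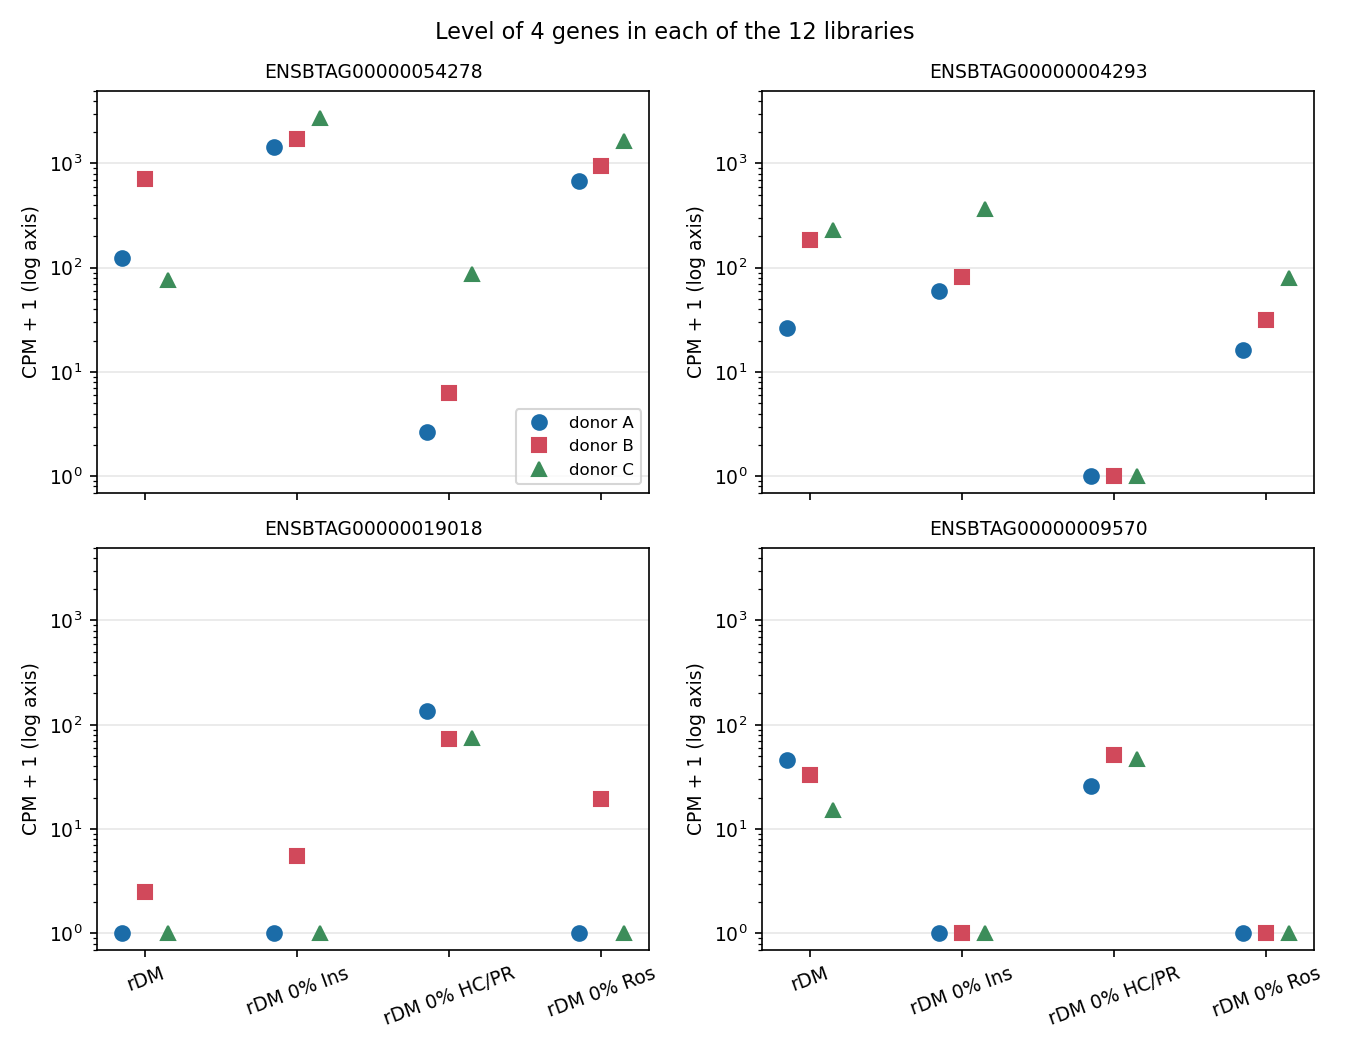
Each point is a library, with the level of the gene as CPM + 1 on a log axis, by medium and donor (colour and symbol). The upper genes are those limma ranked first among the rises without insulin against without HC/PR at a pseudocount of 1, and the lower genes those it ranked first among the falls, and a value of 1 on the axis stands for 0 reads.

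Among the falls, limma ranked ENSBTAG00000019018 first at a pseudocount of 1. Without HC/PR it was at 134.5, 71.8 and 74.5 CPM in donors A, B and C. Without insulin it was at 0, 4.47 and 0 CPM, which is 2 reads, both in donor B and under the limit of 3 reads per library, against 147 in the steroid-free ones. The ratio of pooled reads, each over the depth of its medium, was 63.6, with an exact binomial 95% interval from 17.3 to 529.8. This interval covers counting error at most, and it was taken on batch-corrected counts, not on sequenced reads. The gene was at 0, 1.51 and 0 CPM in rDM and at 0, 18.4 and 0 CPM in rDM 0% Ros. It was thus above the limit of 3 reads in the 3 steroid-free libraries and in 1 other library, that of rDM 0% Ros in donor B. limma gave a log2 fold change of -5.69 with a standard error of 0.99 (adjusted p = 0.0304). It was not past the threshold in limma without donor A (adjusted p = 0.0989) or donor C (adjusted p = 0.406). Without donor B it did not pass the filter on level and was not tested. Nor was it past the threshold without the insulin-free library of donor B (0.156) or C (0.188), or the steroid-free library of donor A (0.187) or C (0.233). In the reported fit the gene passed the filter through the 3 steroid-free libraries, where it was high, and that of rDM 0% Ros in donor B. Its p-values under this filter therefore describe the call and support no conclusion. With the library pool in the model the adjusted p was 0.176, at a pseudocount of 0.1 it was 0.156 (log2 fold change -7.97), and without the variance trend 0.233, or 0.0703 with all 12 libraries. Over 25 alternatives the adjusted p ran from 9.44e-17 to 0.406. Where the call was lost, the log2 fold change was -5.87 with the pool, -5.41 without donor C, -4.99 without donor A, -5.87 and -5.70 without the insulin-free library of donor B or C, and -4.84 and -5.26 without the steroid-free library of donor A or C.

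The gene next in that order, ENSBTAG00000009570, had 0 reads in all 3 libraries without insulin. Without HC/PR it was at 24.9, 50.5 and 45.9 CPM, from 15, 19 and 24 reads. Its mean of 40.4 CPM was at least 3.98-fold above the largest limit of 3 reads per library without insulin, 10.2 CPM, which is that of donor C. Without that library it was at least 6.04-fold above the limit. It had 0 reads in the 3 rDM 0% Ros libraries as well, and it was at 45.1, 31.7 and 14.4 CPM in rDM. The gene was therefore detected with insulin and rosiglitazone together, with or without the steroids, and in no library that lacked one of them. limma gave a log2 fold change of -5.31 with a standard error of 0.91 (adjusted p = 0.0277), again no bound. The gene passed the filter on level only through the 3 steroid-free libraries, where it was high. Its p-values under this filter therefore describe the call and support no conclusion. Fits that left out a steroid-free library did not test it. It came before ENSBTAG00000019018 at a pseudocount of 0.1 (-8.60 against -7.97) and in edgeR (-7.19 against -6.04). The adjusted p was 0.081 in edgeR on the recovered reads, where the log2 fold change was -7.19. In limma on the CPM it was 0.18 with the library pool in the model (log2 fold change -5.22), and 0.161 and 0.195 without the insulin-free library of donor B or C (log2 fold changes -5.22 and -5.25). It was 0.156 at a pseudocount of 0.1 and 0.137 with a filter of 10 CPM in 3 libraries, and 0.0664 in edgeR with DESeq2 size factors. Over 19 alternatives it ran from 3.75e-08 to 0.195. It was the only gene of the table with 0 reads in each insulin-free library and at least 20 CPM in each steroid-free library.

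In all, 9 of the 54 genes, the last 3 described included, had fewer than 3 reads in every library of the medium in which they were lower. For 4 of these genes that medium was rDM 0% HC/PR and for 5 it was rDM 0% Ins. All other genes of the 54 reached 3 reads in at least 1 library of both media.

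The 30 genes higher without insulin made up a small share of the mRNA. Their summed level was 11524, 16449 and 17759 CPM in donors A, B and C without insulin, and 3012, 2857 and 2954 CPM without HC/PR. Every insulin-free library was thus above every steroid-free library, and the steroid-free libraries lay close together. In rDM the sum was 3195, 5104 and 4165 CPM, near the steroid-free level and below every insulin-free library. In rDM 0% Ros it was 6970, 6287 and 10039 CPM, between both. The most abundant of these genes made up 12.9% of the insulin-free sum. The genes were chosen by this contrast, so the sums of the 2 media it compared describe the calls and test nothing.

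The 24 genes lower without insulin had a median of 175 CPM over the 6 libraries, against 208.9 CPM for the 30 higher ones, but they included the 6 above 1000 CPM. Their summed level was 9115, 7273 and 7684 CPM without insulin, and 23009, 20455 and 21984 CPM without HC/PR. In rDM it was 15818, 21408 and 14284 CPM, and in rDM 0% Ros 19287, 18753 and 20595 CPM. The low sum without insulin is given by the choice of these genes and tests nothing. A single gene made up 25.8% of the steroid-free sum.

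**Figure D3:**
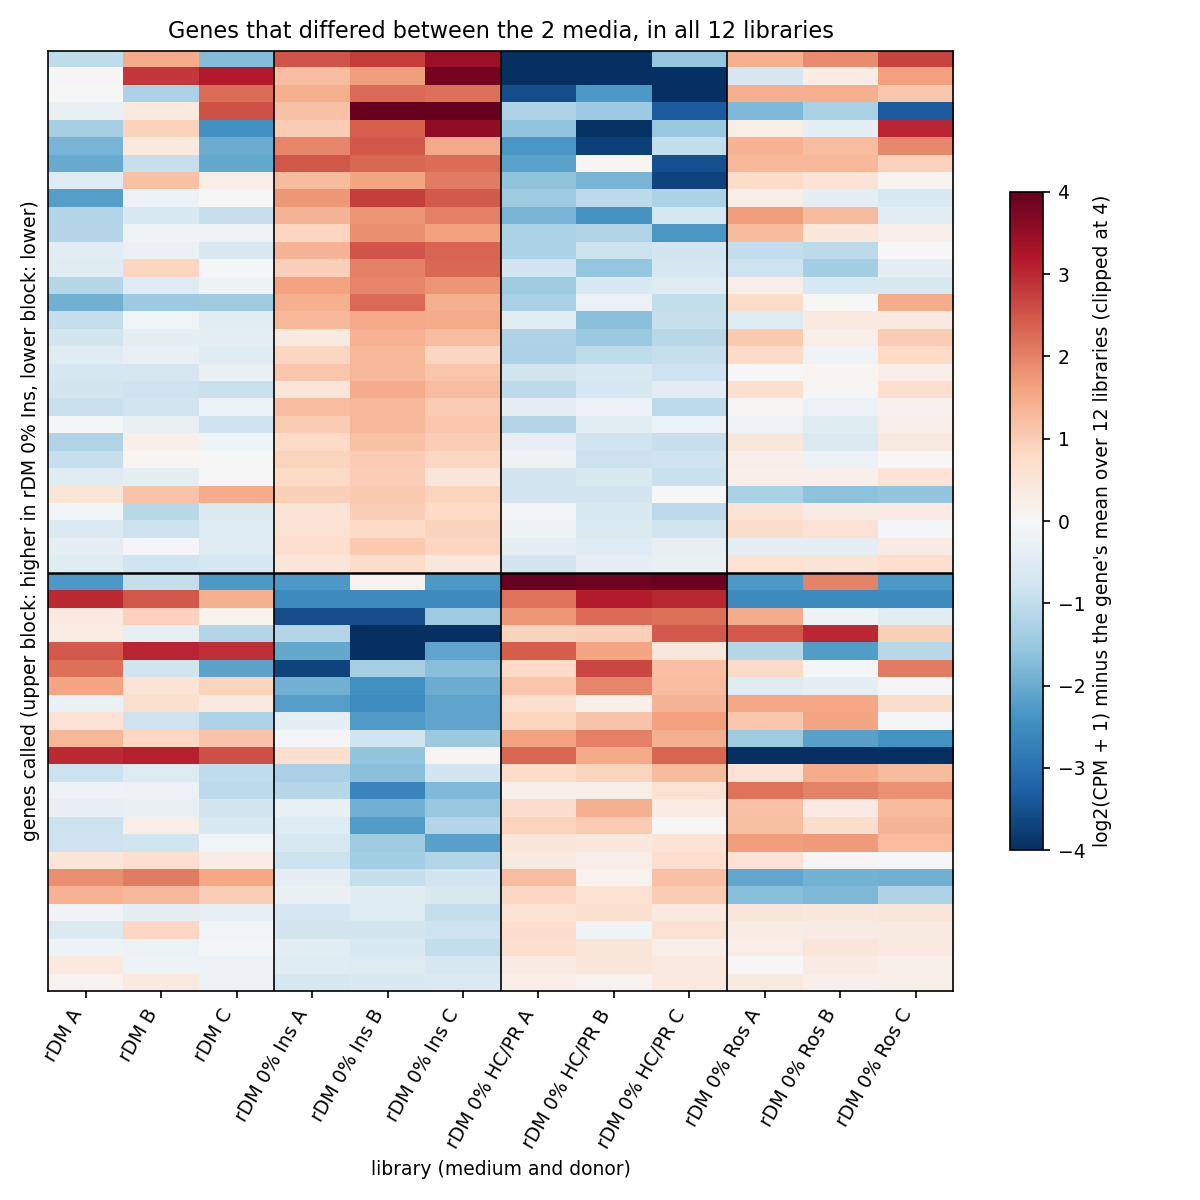
Rows are the 54 genes that differed between rDM 0% Ins and rDM 0% HC/PR, and columns are the 12 libraries. Colour is log2(CPM + 1) minus the gene's mean over all libraries, clipped at 4, with 30 genes higher without insulin in the upper block and 24 lower in the lower block.

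The levels in rDM, which were not used in the test, place each gene of both media relative to the complete medium. For the 30 genes higher without insulin, the mean log2 level in rDM was nearer to rDM 0% HC/PR in 24 (80.0%) and nearer to rDM 0% Ins in 6. It lay between both media in 23. For the 24 genes lower without insulin, rDM was nearer to rDM 0% HC/PR in 16 (66.7%), nearer to rDM 0% Ins in 8 and between both in 18. Over all 8962 genes tested rDM was nearer to rDM 0% HC/PR in 59.8% and between both media in 38.3%. The level without rosiglitazone was nearer to rDM 0% Ins for 17 of the 30 higher genes (56.7%), where 49.8% of all genes tested were. For the 24 lower genes it was nearer to rDM 0% HC/PR in 17 (70.8%), where 50.2% of all genes were. These counts describe levels and were not tested.

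The 6 abundant genes that were lower without insulin showed a range of such patterns. The one with the strongest fall had a mean of 418.7 CPM without insulin and 1894 CPM without HC/PR, with 553.0 CPM in rDM and 2152 CPM in rDM 0% Ros. Its steroid-free mean was thus farther from rDM than its insulin-free mean, and so was the mean in rDM 0% Ros. The one with the weakest fall had 1521 CPM without insulin and 2854 CPM without HC/PR, with 2579 CPM in rDM and 2841 CPM in rDM 0% Ros. There the insulin-free mean was the one farther from rDM.

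The donors differed in how much of the difference they shared. For genes with a mean of at least 20 CPM, the log2 differences of donors B and C had a Pearson correlation of 0.480 across 4191 genes. It was 0.147 between donors A and B and 0.218 between donors A and C. Over all 8962 genes tested these values were lower, at 0.224 for donors B and C, 0.0607 for A and B and 0.0887 for A and C. In the 4810 uncorrected transcripts they were 0.215, 0.0615 and 0.0698. Genes and transcripts are not independent replicates, and each of these values rests on 4 libraries. The gene values come from the table that was corrected for batch over all libraries. Among the called genes the median log2 difference was 2.13, 2.53 and 2.37 in donors A, B and C for those higher without insulin, and -1.53, -2.85 and -2.31 for those lower. Donor B, whose libraries were in different pools, thus had the largest median difference in both directions. Without donor B, 51 of the 54 genes were still tested, all 51 kept their direction, and 27 genes were called in that fit (0.334%), 20 of them among the 54. With the library pool added to the donor as a block, all 54 genes kept their direction and 14 genes were called (0.156%), 12 of them among the 54. The median absolute log2 fold change was then 1.90, and 1.96 without donor B, against 2.29 as reported. Of the donor B libraries in the fit, only the insulin-free one was in the first pool. The pool term thus took up that library, and the fit is no separate alternative to leaving it out. The pool and the medium cannot be told apart within donor B.

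The annotated length of the transcripts to which reads were assigned moved with the medium in donor C. Ordered by that length, the transcript at the middle of the reads was 933, 1198 and 1203 bases long in donors A, B and C without insulin, and 967, 1172 and 1011 bases long without HC/PR. In donor C, 27.4% of the reads without insulin and 18.7% of those without HC/PR came from transcripts over 2000 bases. In donors A and B these shares were 18.9% and 25.9% without insulin, and 19.7% and 24.9% without HC/PR. In donor C the median log2 difference of the uncorrected transcripts rose from -0.19 for those up to 1000 bases to 0.86 for those over 3000 bases. Over the same bins it went from -0.07 to 0.24 in donor B and from -0.03 to -0.07 in donor A. Without the libraries of donor C, 5 genes were called (0.0624%), all among the 54. The 52 of the 54 genes with a value in that fit all kept their direction, and the median absolute log2 fold change was 2.28, against 2.29 with donor C. The part of transcript length in the gene result was not tested, since the gene table holds no length.

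**Figure D4:**
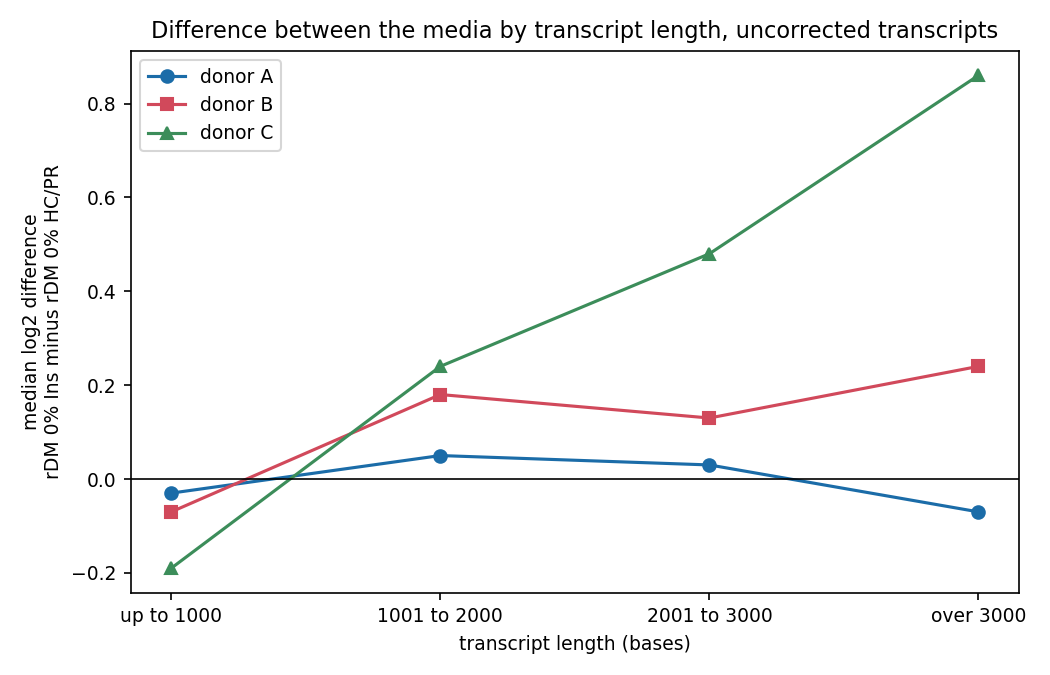
The median log2 difference (rDM 0% Ins minus rDM 0% HC/PR) of the uncorrected transcripts tested is plotted by transcript length, with a line for each donor. In donor C it rises from -0.19 to 0.86 with length, while donor A stays between -0.07 and 0.05.

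The numbers of genes detected also differed by library. At an equal depth of 295288 reads, 8782, 9590 and 9824 genes had at least 1 read in donors A, B and C without insulin, and 9158, 9454 and 8884 without HC/PR. The insulin-free library thus had more genes in donors B and C and fewer in donor A. The 10 most abundant genes took 16.3%, 14.0% and 13.2% of the reads without insulin and 14.3%, 13.5% and 15.8% without HC/PR.

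In the uncorrected transcripts, edgeR's quasi-likelihood test with the donor as a block called 5 of 4810 (0.104%), all higher without insulin. At an unadjusted p under 0.05 there were 422, where 240 would be given by chance. After removal of a curve against transcript length, a fit chosen after seeing the data, 4 of these 5 were called (0.0832%), and no others. The count was 0 with only the 6 libraries in the fit, with the library pool in the model, or without any 1 of the 3 donors. It was also 0 when either library of donor B or C, or the steroid-free library of donor A, was left out. Without the insulin-free library of donor A it was 3, of which 2 were among the 5. In the fits with 0 calls, from 228 to 451 transcripts had an unadjusted p under 0.05, where 213 to 281 would be given by chance. They were fewer than chance gives without donor C (228 against 257) and without the insulin-free library of donor B (261 against 266) or C (274 against 280). DESeq2 on the transcripts that edgeR tested, also chosen after seeing the data, called 48 (0.998%), 26 higher and 22 lower.

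The 2 transcripts with the highest log2 fold changes in edgeR are named here after their values were seen. ENSBTAT00000040084.5, 1130 bases long, was at 79.5, 415 and 36.3 CPM without insulin in donors A, B and C. It was at 1.58, 10.3 and 0 CPM without HC/PR. The libraries of both media did not overlap, and donor B was the highest in each. The log2 fold change was 5.39 (adjusted p = 0.0206 from edgeR). In rDM it was at 29.5, 40.1 and 37.7 CPM, and in rDM 0% Ros at 83.7, 248.9 and 14.9 CPM. The rDM 0% Ros level was above the insulin-free one in donor A and below it in donors B and C.

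ENSBTAT00000071929.1 was 569 bases long, and it was at 568, 5719 and 1445 CPM without insulin. It was at 1.71, 229 and 43.4 CPM without HC/PR, again with donor B the highest. The log2 fold change was 5.26 (adjusted p = 0.034 from edgeR). In rDM it was at 17.8 and 38.6 CPM in donors A and C and at 3392 CPM in donor B, and in rDM 0% Ros at 209, 838 and 4019 CPM in donors A, C and B. The other 3 transcripts called had log2 fold changes from 2.55 to 3.79. One of these was also 569 bases long. The sequences were not compared, and whether the quantification split shared reads between both was not tested.

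The calls were compared between tools. Of the 54 genes, 40 were among the 49 that edgeR's quasi-likelihood test called on the recovered reads (1.07% of 4592 tested). With DESeq2, 46 of the 54 were among the 83 called (1.67% of the 4975 given an adjusted p). Over all genes to which that DESeq2 fit gave a p, 471 had an unadjusted p under 0.05, where 691 would be given by chance. All 54 were among the 115 called with only the 6 libraries in limma (1.45% of 7920), and 52 were among the 104 called with all 12 (1.12% of 9267). In total, 36 genes, 20 higher and 16 lower without insulin, were called in all 5 of these fits, with the same direction in each. Of the 4 genes described above, 3 were among the 36. The fits share their libraries and are not independent evidence. Without the trend of the variance on the level in limma, 3 genes were called.

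**Figure D5:**
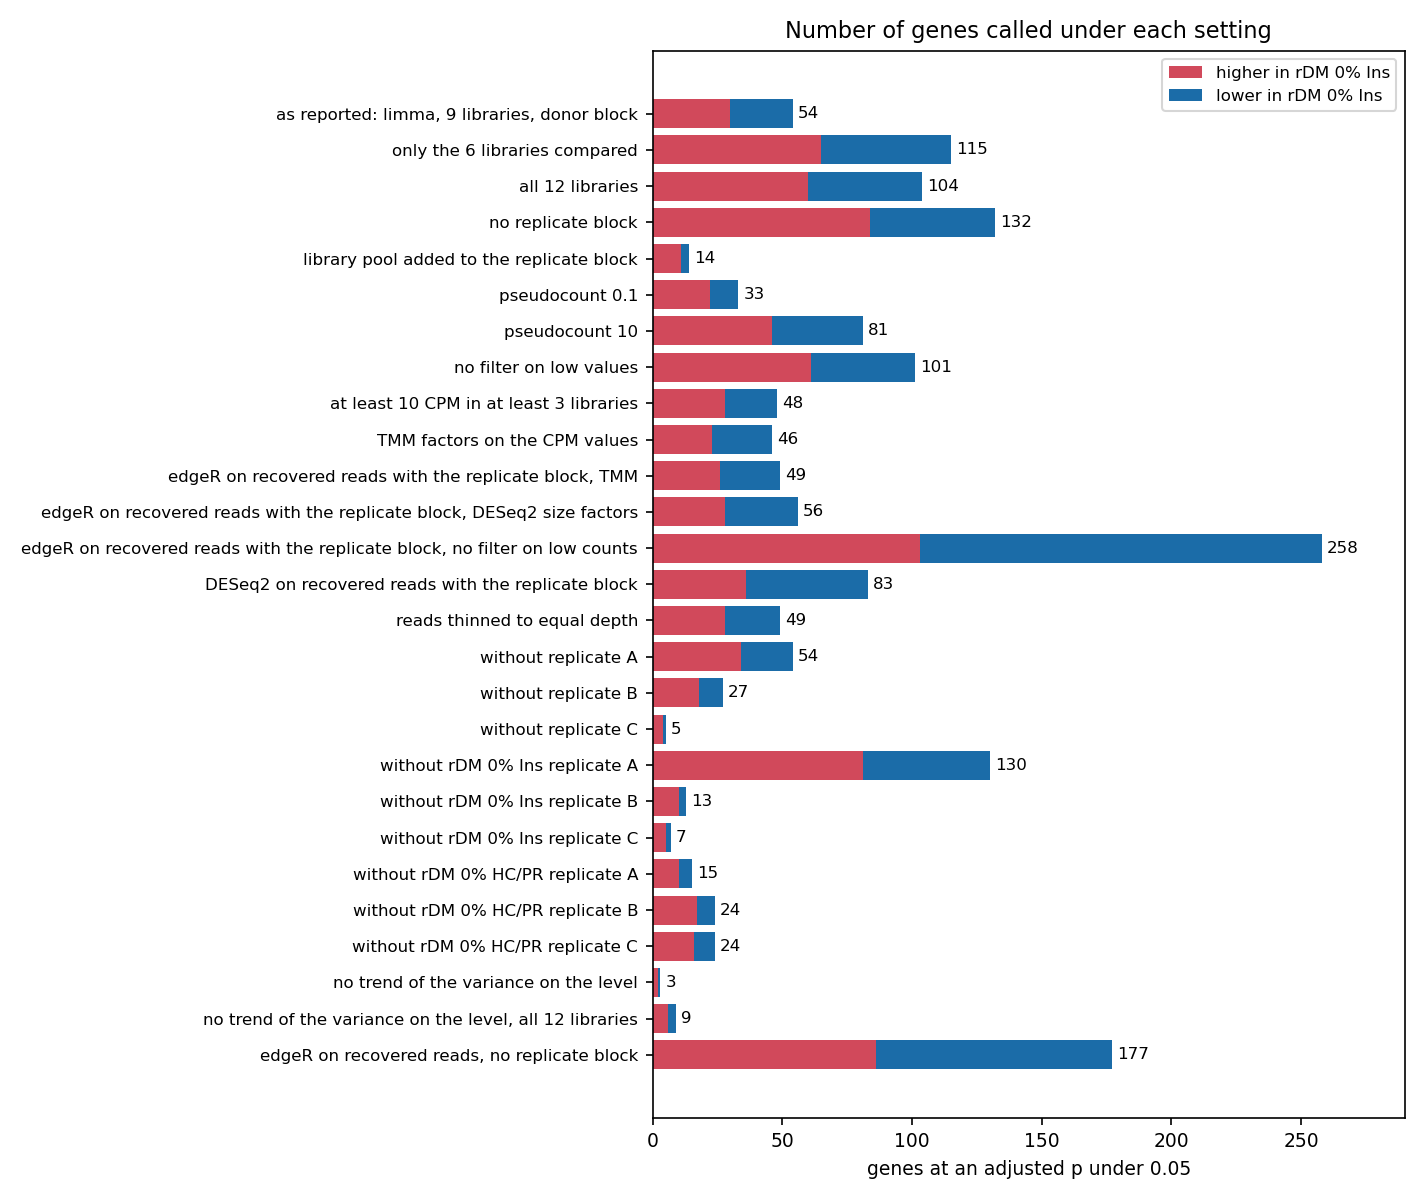
Bars give the number of genes called at an adjusted p under 0.05 in each fit, with those higher without insulin in red and those lower in blue. The count of 54 as reported lies between 3, without the variance trend, and 258, in edgeR without a filter on low counts.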

How the data were processed

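Libraries were grouped by their labels, and replicate letters mark donors. The authors sequenced PCR-cDNA libraries in 2 pools, mapped the reads to the bovine transcriptome (ARS-UCD1.2) with Minimap2 and quantified them with Salmon. The deposited estimated counts per transcript, 38030 in each library, carry no batch correction. The CPM values per gene were summarised with tximport, corrected by the authors with ComBat-seq for 3 batches of mRNA extraction, which coincide with the donors, and scaled to 1000000 per library. The spread in this table is therefore not that of independent libraries, and p-values may be too small.

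A gene was tested if 3 or more of the 9 libraries of the deprived media held it at 5 CPM or more, and the pseudocount was 1. limma 3.58.1 was run with a variance trend on the level, in R 4.3.3. Estimated counts were rounded and tested with edgeR 4.0.16 (TMM, filterByExpr), with DESeq2 1.42.0 beside it. Same-donor libraries come from the same animal. In the uncorrected transcripts their deviations from the medium means correlated by 0.189 to 0.534 over 9 pairs, and by -0.312 to 0.0401 in the corrected genes. No 2 libraries of a medium agreed within sampling noise.

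The comparison and gene lists were chosen with earlier results of these data known. The lists could not be used, since identifiers had no names. The genes described are the 2 largest rises and falls by limma's log2 fold change among called genes whose mean reached 20 CPM and whose direction was shared by all donors. Alternatives covered the libraries in the fit, block, pool, pseudocount, filter, scaling, threshold, tool and depth. All value columns belonged to mapped libraries.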

Additional observations from a re-analysis of the deposited data

How the results depend on the processing

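The 54 genes kept their direction in all 26 other fits in which they had a value. Those fits reuse the libraries on which the genes were chosen, and some give the same log2 fold changes by design. Each gene also moved the same way in every donor, so leaving a donor out of limma could not reverse it. The kept direction is therefore no separate support. The count of genes called moved. It was 115 with only the 6 libraries compared, 104 with all 12 libraries, 132 with no replicate block and 14 with the library pool added to the replicate block. That pool term takes up the insulin-free library of donor B, so it is no separate alternative to leaving this library out. It was 33 with a pseudocount of 0.1 and 101 with no filter on low values. At an adjusted p under 0.01 it was 14, and under 0.1 it was 100. edgeR with no filter on low counts gave 258 (103 higher and 155 lower without insulin), and DESeq2 gave 83 (36 higher and 47 lower). Chosen after seeing the data, limma without the variance trend gave 3, or 9 with all 12 libraries, and edgeR with no replicate block 177. Leaving out a donor or a library gave 5 to 130. The lowest came without donor C and the highest without the insulin-free library of donor A, while the count was 54 without donor A, 24 of them among the 54 reported, and 27 without donor B. The causes were not tested.

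For the uncorrected transcripts, where the reported count is 5, the count was 0 when no replicate block was fitted. It was also 0 when the fit held the 6 libraries alone and 0 with the library pool. With all 12 libraries it was 9, of which 6 were higher and 3 lower without insulin, and only 2 were among the 5 reported. It was 219 without a filter on low counts and 226 with DESeq2, which tested 15543 transcripts. DESeq2 on the transcripts that edgeR tested, a fit chosen after seeing the data, gave 48. Leaving out a donor or a library gave 0 to 3. Where the count was 0, from 228 to 451 transcripts had an unadjusted p under 0.05, against 213 to 281 by chance, and without donor C (228 against 257) or the insulin-free library of donor B (261 against 266) or C (274 against 280) there were fewer than by chance.

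Over all genes tested, the median log2 fold change stayed between -0.04 and 0.35, within 1 SD between donors of 0.18 in each fit. No gene named above reversed. ENSBTAG00000054278 stayed past the threshold in 24 of 26 fits, ENSBTAG00000004293 in 25 of 26, ENSBTAG00000019018 in 15 of 25 and ENSBTAG00000009570 in 12 of 19 in which it was tested. At these depths genes under 20 CPM had a median spread between donors of 1.28 on the log2 scale (SD, n = 3 donors), and no limit of detection was computed for a difference.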
